A study of Mus musculus with 6 samples.

Results

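The keratins of the epidermis between the hair follicles, and the keratins that injured or inflamed epidermis makes, were followed in lesional skin. They were the 10 genes Krt1, Krt2, Krt5, Krt10, Krt14, Krt6a, Krt6b, Krt16, Krt17 and Krt77, chosen by symbol from a table of 35434 genes. All 10 had a row. Donor regulatory T cells (Tregs) had been transferred into mice with psoriasis-like skin disease. In Lenv-Treg the donor cells were treated with lenvatinib, an inhibitor of receptor tyrosine kinases, and in Ctrl-Treg they were control Tregs. The title of the series credits lenvatinib treatment with the better control of inflammation, while wound keratins and neutrophil genes were higher in libraries labelled Lenv-Treg. The files hold nothing that checks the group labels, so each direction given here rests on them. Each group had 3 RNA-seq libraries of total RNA. The labels name neither the strain, sex and age of the mice, nor the agent that induced the disease, nor how many cells were given. Whether each library is another mouse is not said either, so the spread behind every p-value may be technical.

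Keratins build the intermediate filaments of epithelial cells, and each filament is made of equal numbers of type I and type II keratins. Basal keratinocytes make the pair of Krt5 (type II) and Krt14 (type I). Cells that leave the basal layer change to Krt1 (type II) and Krt10 (type I). Wounded and psoriatic epidermis makes Krt6a and Krt6b (type II) with Krt16 and Krt17 (type I) above the basal layer. Hair follicles also make Krt5, Krt14, Krt6a, Krt16 and Krt17.

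Depth was recovered from the steps in the values and came to between 38704536 and 40248462 reads per library, a ratio of 1.04. Libraries correlated at 0.984 to 0.992 within a group and at 0.897 to 0.939 between groups, across genes. Of 13945 genes tested, 11.0% were called higher and 30.8% lower in Lenv-Treg, 41.7% in all, at an adjusted p under 0.05 (limma on log2(FPKM + 1), Benjamini-Hochberg). FPKM is a level per length of gene and per depth of library. Every difference below subtracts the Ctrl-Treg mean from the Lenv-Treg mean of log2(FPKM + 1). Over all tested genes the median difference came to -0.17. It was -0.44 after rescaling to TPM and 0.02 after median-ratio scaling, and member differences can be read against these shifts. Keratinocyte genes other than keratins were present in all 6 libraries and gave a mixed picture. Trp63 (difference -0.12, adjusted p = 0.38), Col17a1 (0.11, adjusted p = 0.506) and Dsp (0.38, adjusted p = 0.0586) did not pass the test, while Perp (0.77, adjusted p = 0.00888) and Itgb4 (0.66, adjusted p = 0.00814) were higher in Lenv-Treg. In bulk skin, fewer cells of a type and less RNA per cell cannot be told apart.

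Of the 10 keratins, 5 were higher in Lenv-Treg (Krt5, Krt14, Krt6a, Krt6b and Krt16), 3 were lower (Krt10, Krt2 and Krt77) and 2 did not pass (Krt1 and Krt17). Over all tested genes 11.0% were called higher and 30.8% lower, so the count of lower members was near the general share. The median difference of the 10 was 0.47. The groups did not overlap for 7 of the 10, against 55.4% of all tested genes. All 10 passed the filter on low values (FPKM of at least 0.5 in at least 3 libraries), Krt2 through its Ctrl-Treg values alone, so that it had to differ. No called member changed sign under any scaling. The signs of Krt1 and Krt17 did change, at 0.24 and 0.26 after median-ratio scaling and -0.28 and -0.26 after rescaling to TPM.

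**Figure D1:**
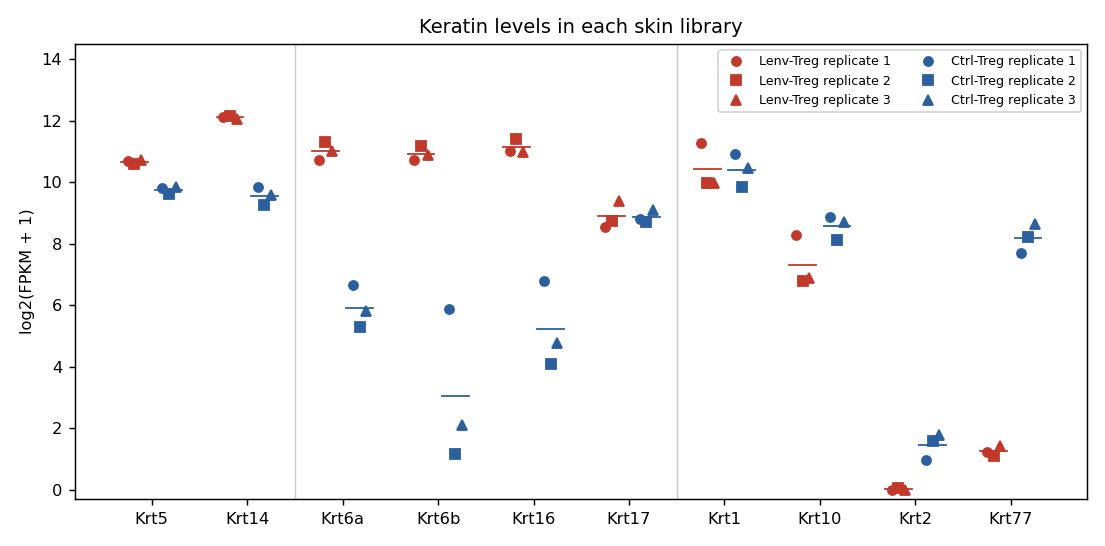
Level of each keratin in each library as log2(FPKM + 1), Lenv-Treg in red and Ctrl-Treg in blue, with marker shapes for replicates and bars for group means; grey lines part the basal, wound and suprabasal keratins. The groups lie apart for Krt5, Krt14, Krt6a, Krt6b, Krt16, Krt2 and Krt77 and overlap for Krt17, Krt1 and Krt10.

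Since reads can be shared between near-identical genes, the coding sequences were compared first. Krt6a and Krt6b were 97.8% identical over 1659 aligned coding bases, with a longest identical run of 280 bases. Of all stretches of 50 bases in the coding sequence, 68.5% in Krt6a and 67.9% in Krt6b also occurred in a transcript of another gene. The share was 41.9% in Krt16, 16.8% in Krt14, 10.8% in Krt5 and 4.8% in Krt17. It was 0% in Krt1, Krt2, Krt10 and Krt77. Counts of Krt6a, Krt6b and Krt16 are therefore uncertain gene by gene, since for shared reads the counting rule is not given in the sources used here. A stretch of 60 coding bases where Krt6a and Krt6b differ most (coding bases 817 to 876 counted from the start codon, 10 differences, in capitals; GENCODE M21 transcripts, both genes on the minus strand of chromosome 15 in GRCm38) shows what tells their reads apart.
Krt6a: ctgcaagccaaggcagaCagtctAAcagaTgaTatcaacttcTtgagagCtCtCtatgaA
Krt6b: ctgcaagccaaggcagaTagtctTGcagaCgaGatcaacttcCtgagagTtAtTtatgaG

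The basal pair rose, Krt14 more than Krt5. Krt14 had 4417, 4571 and 4294 FPKM in Lenv-Treg, against 923, 611 and 774 FPKM in Ctrl-Treg. All Lenv-Treg libraries lay far above all Ctrl-Treg libraries, and their spread was small. The means were 4428 ± 139 and 769 ± 156 FPKM (SD, n = 3 each), a fold of 5.75 (difference 2.54, SE 0.21, limma adjusted p = 0.000183). Krt5 had 1653, 1544 and 1689 FPKM in Lenv-Treg, against 892, 781 and 923 FPKM in Ctrl-Treg, with no overlap. Its fold was 1.88 (difference 0.91, SE 0.16, limma adjusted p = 0.00404). Krt14 was the most abundant of the 10 per length in Lenv-Treg, and no Lenv-Treg library of another member reached its lowest value. In Ctrl-Treg, Krt14 overlapped Krt5, the member above it in the order of mean FPKM.

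Within libraries, Krt14 thus stood at 2.67, 2.96 and 2.54 times Krt5 in Lenv-Treg, against 1.03, 0.782 and 0.839 times in Ctrl-Treg. The ratio was higher in all Lenv-Treg libraries, on average by 3.09 times. The exact two-sided permutation test gave p = 0.1, the smallest that 3 against 3 samples allow. The same floor holds for the 10 main ratios, shares and totals and for 15 other forms of them, such as single pairs or other gene lengths. None of these 25 can pass 0.05, and adjusting over them leaves each p at 0.1 or above. A ratio between genes of the same library does not depend on how libraries are scaled.

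The wound keratins Krt6a, Krt6b and Krt16 had the largest increases. Krt6a, a type II keratin of activated epidermis, had 1704, 2567 and 2062 FPKM in Lenv-Treg, against 99.7, 38.1 and 54.9 FPKM in Ctrl-Treg. The lowest Lenv-Treg library was far above the highest Ctrl-Treg library. The difference was 5.11 (SE 0.34, limma adjusted p = 7.71e-05), a fold of 32.9. Krt6b, its near copy, had 1686, 2309 and 1879 FPKM in Lenv-Treg, against 57.4, 1.24 and 3.29 FPKM in Ctrl-Treg. Here the Ctrl-Treg libraries themselves spread widely, replicate 1 lying well above the other two. The difference was 7.88 (SE 1.06, limma adjusted p = 0.00124), and the fold of 94.9 became 865 without Ctrl-Treg replicate 1. Krt16, the type I partner, had 2079, 2702 and 2031 FPKM in Lenv-Treg, against 110.3, 15.9 and 26.1 FPKM in Ctrl-Treg. The same Ctrl-Treg library was the high one, and the groups lay apart. The difference was 5.92 (SE 0.62, limma adjusted p = 0.000415), and the fold of 44.7 became 108 without Ctrl-Treg replicate 1. Of all tested genes, 33 (0.237%) were called higher by a difference of at least 5, these 3 among them.

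The near copies stood further from each other in Ctrl-Treg than in Lenv-Treg. Krt6b stood at 0.989, 0.899 and 0.911 times Krt6a in Lenv-Treg, close to equal levels. In Ctrl-Treg it stood at 0.576 times Krt6a in replicate 1 and at 0.0326 and 0.0598 times in replicates 2 and 3 (exact permutation p = 0.1). Ctrl-Treg replicate 2 had 109 reads of Krt6b beside 3367 of Krt6a. Gm5414, a predicted gene that shares stretches with both, was at 0.871, 3.72 and 2.2 FPKM in Lenv-Treg, against 0.202, 0.0445 and 0.06 FPKM in Ctrl-Treg. Krt16 stood at 0.613, 0.554 and 0.516 times the sum of Krt6a and Krt6b in Lenv-Treg, against 0.702, 0.405 and 0.448 times in Ctrl-Treg. These ranges overlapped (exact permutation p = 0.5, log2 ratios -0.84 ± 0.13 and -0.99 ± 0.42, SD, n = 3 each).

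Krt17, the other type I keratin of wounded epidermis, did not move with them. It had 377, 423 and 673 FPKM in Lenv-Treg, against 442, 421 and 543 FPKM in Ctrl-Treg. The highest value was Lenv-Treg replicate 3 and the lowest Lenv-Treg replicate 1, with the Ctrl-Treg libraries between them. The difference was 0.03 (SE 0.24, 95% interval -0.52 to 0.58, limma adjusted p = 0.93). Krt17 was 0.182, 0.156 and 0.331 times Krt16 in Lenv-Treg, against 4.01, 26.4 and 20.8 times in Ctrl-Treg (exact permutation p = 0.1). Krt17 was thus above Krt16 per length in every Ctrl-Treg library and below it in every Lenv-Treg library.

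**Figure D2:**
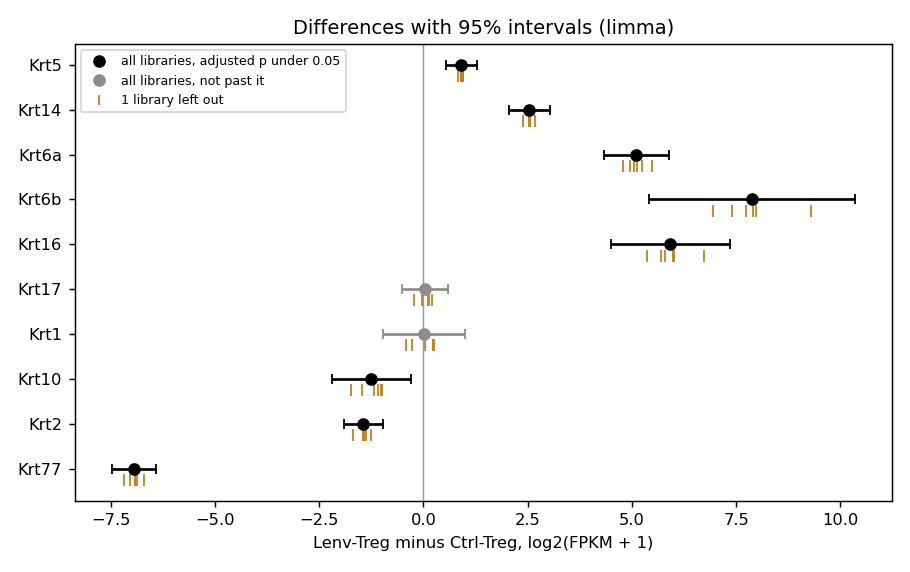
Difference of each keratin in log2(FPKM + 1), positive where Lenv-Treg was higher, with its limma 95% interval; black points passed an adjusted p under 0.05, grey ones did not, and orange ticks give the difference with 1 library left out. Krt6b ranges widest when a library is left out, reaching 9.29 without Ctrl-Treg replicate 1, and Krt17 and Krt1 lie near 0.

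The suprabasal keratins split. Krt1, the type II keratin of differentiating cells, had 2474, 1015 and 1015 FPKM in Lenv-Treg, against 1941, 914 and 1415 FPKM in Ctrl-Treg. The groups overlapped, with the highest value in Lenv-Treg replicate 1. The difference was 0.01 (SE 0.42, 95% interval -0.97 to 0.99, limma adjusted p = 0.99). A change of up to about 1 on this scale in either direction was thus not excluded. Krt10, its type I partner, had 311, 110.0 and 118 FPKM in Lenv-Treg, against 472, 277 and 421 FPKM in Ctrl-Treg. Lenv-Treg replicate 1 was again the high library of its group, and it lay above the lowest Ctrl-Treg library. The difference was -1.25 (SE 0.41, limma adjusted p = 0.0419). This call ended without Lenv-Treg replicate 2 (adjusted p = 0.134), Lenv-Treg replicate 3 (0.129), Ctrl-Treg replicate 1 (0.111) or Ctrl-Treg replicate 3 (0.0929), and after median-ratio scaling (0.0893). Without Lenv-Treg replicate 1 the ratio of mean FPKM was 0.292 in place of 0.461.

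Krt77, a type II keratin of suprabasal interfollicular epidermis in the mouse, was nearly lost. It had 1.32, 1.16 and 1.66 FPKM in Lenv-Treg, against 205, 299 and 402 FPKM in Ctrl-Treg. These values rest on 155, 137 and 193 reads in Lenv-Treg, against 24136, 34322 and 45614 reads in Ctrl-Treg. The libraries within each group were close to each other beside the gap between the groups. Mean FPKM was 218-fold lower in Lenv-Treg (difference -6.94, SE 0.23, limma adjusted p = 1.49e-05). Krt77 was 0.000534, 0.00114 and 0.00164 times Krt1 in Lenv-Treg, against 0.105, 0.327 and 0.284 times in Ctrl-Treg (exact permutation p = 0.1). Krt1 itself was at 1015 FPKM or more in all Lenv-Treg libraries.

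Krt2, a type II keratin of late differentiation that in the mouse is made chiefly in ear, tail and sole skin, was scarce in both groups. It had 0, 0.0283 and 0 FPKM in Lenv-Treg, against 0.961, 2.03 and 2.45 FPKM in Ctrl-Treg. This is 3 reads over the Lenv-Treg group, all in replicate 2, against 562 reads over the Ctrl-Treg group. The ratio of reads per depth was 0.00526, with an exact 95% interval of 0.00108 to 0.0155 that covers counting error only. The difference was -1.44 (SE 0.20, limma adjusted p = 0.0013), a scale that understates the change of so low a gene. At these depths 1 read of Krt2 was worth 0.00942 to 0.00979 FPKM.

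Levels set between genes depend on the length each FPKM was divided by, and for Krt10 the recovered length was unusual. The reads and steps gave a length of 10555 bases for Krt10, while its exons in GENCODE M21 cover 2114 bases. The recovered length is the smallest whole length that made its reads whole in all libraries. The recovered 10555 bases lie close to a whole multiple of 2114 bases, and reads counted in fractions would give such a length. Whether Krt10 reads were counted so was not tested. If they were, the Krt10 values at the GENCODE length below would not hold, nor would the orders, shares and ratios built on them. For Krt1 the lengths were 2447 bases in the table and 4415 bases in GENCODE. GENCODE lengths here merge the exons of all transcripts of a gene, so they can exceed the length of any single transcript. For the other members the lengths were close, such as 1720 and 1758 bases for Krt14. Reads of Krt10 divided by its GENCODE length came to 1554, 549 and 588 FPKM in Lenv-Treg, against 2358, 1383 and 2100 FPKM in Ctrl-Treg. On that scale, chosen after the data were seen, Krt10 stood first in the Ctrl-Treg order of means, with a range that overlapped Krt1, in place of rank 5 as deposited. In the deposited order of Lenv-Treg means, Krt14 came first, then Krt16, Krt6a, Krt6b, Krt5 and Krt1, of which neighbours overlapped, and then Krt17, Krt10, Krt77 and Krt2, each apart from the next. In Ctrl-Treg, Krt1, Krt5 and Krt14 came first, then Krt17, Krt10 and Krt77, and last Krt6a, Krt16, Krt6b and Krt2, and within each of these sets neighbours overlapped. The fold of Krt10 between groups does not depend on its length. Krt1 stood at 1.59, 1.85 and 1.72 times Krt10 in Lenv-Treg, against 0.823, 0.661 and 0.674 times in Ctrl-Treg, with Krt10 at the GENCODE length (exact permutation p = 0.1). With Krt1 at its GENCODE length too, it stood at 0.882, 1.03 and 0.956 times Krt10 in Lenv-Treg, against 0.456, 0.366 and 0.373 times in Ctrl-Treg. Which partner was the more abundant therefore depended on the lengths, while the ratio differed between the groups by 2.4 times on each of them.

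Summed over the 10 genes, keratin RNA was higher in Lenv-Treg. The sum was 14704, 15243 and 13762 FPKM in Lenv-Treg, against 5143, 3360 and 4564 FPKM in Ctrl-Treg, a fold of 3.34 (exact permutation p = 0.1) that was 2.59 with Krt10 at the GENCODE length. It made up 2.25% to 2.71% of all FPKM in Lenv-Treg, against 0.732% to 1.11% in Ctrl-Treg. Krt6a, Krt6b and Krt16 held 37.2%, 49.7% and 43.4% of the sum in Lenv-Treg, against 5.2%, 1.64% and 1.85% in Ctrl-Treg (exact permutation p = 0.1). The basal pair held 40.1% to 43.5% in Lenv-Treg, against 35.3% to 41.4% in Ctrl-Treg, ranges that overlapped. With Krt10 at the GENCODE length its share was 38.1%, 39% and 42% in Lenv-Treg, against 25.8%, 31.2% and 27.2% in Ctrl-Treg, with no overlap. Krt1, Krt2, Krt10 and Krt77 together held 19%, 7.39% and 8.24% in Lenv-Treg, against 50.9%, 44.4% and 49.1% in Ctrl-Treg. With Krt10 at the GENCODE length these suprabasal shares were 25.3%, 9.98% and 11.3% in Lenv-Treg, against 64.1%, 58.2% and 62.8% in Ctrl-Treg.

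**Figure D3:**
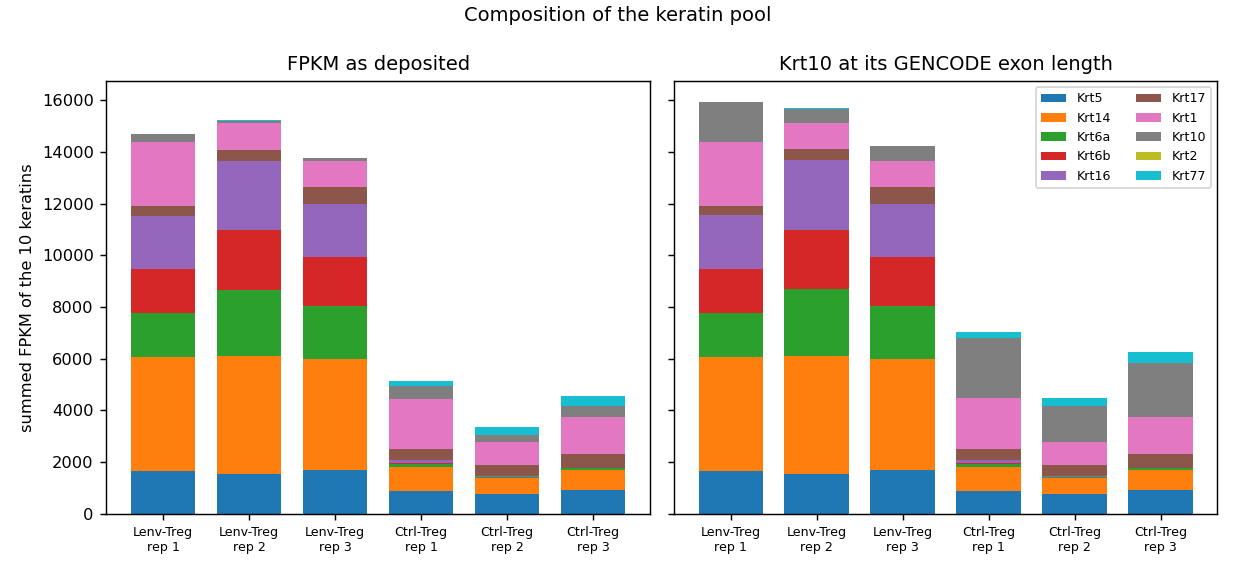
Summed FPKM of the 10 keratins in each library (bars from 0, stacked by gene), with the deposited values on the left and with Krt10 at its GENCODE exon length on the right. Krt6a, Krt6b, Krt16 and Krt14 fill most of the Lenv-Treg bars, and Krt1, Krt10 and the basal pair most of the Ctrl-Treg bars.

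The ratio of suprabasal Krt1 and Krt10 to basal Krt5 and Krt14 was lower in Lenv-Treg. It was 0.459, 0.184 and 0.189 in Lenv-Treg, against 1.33, 0.855 and 1.08 in Ctrl-Treg, with no overlap (exact permutation p = 0.1). Lenv-Treg replicate 1, the library with the most Krt1 and Krt10 of its group, was the nearest to Ctrl-Treg. The partners gave different pictures when taken singly. Krt1 over Krt5 was 1.5, 0.658 and 0.601 in Lenv-Treg, against 2.18, 1.17 and 1.53 in Ctrl-Treg, and these ranges overlapped (exact permutation p = 0.2). Krt10 over Krt14 was 0.0705, 0.0241 and 0.0274 in Lenv-Treg, against 0.512, 0.454 and 0.543 in Ctrl-Treg (exact permutation p = 0.1).

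Type II and type I keratins were then summed apart. Type II over type I was 1.05, 0.953 and 0.934 in Lenv-Treg, against 1.64, 1.54 and 1.59 in Ctrl-Treg, on the deposited values. With Krt10 at the GENCODE length the direction turned, at 0.892, 0.902 and 0.876 in Lenv-Treg, against 0.834, 0.837 and 0.813 in Ctrl-Treg (exact permutation p = 0.1 for each). With both Krt10 and Krt1 at their GENCODE lengths it was 0.761, 0.847 and 0.816 in Lenv-Treg, against 0.608, 0.67 and 0.63 in Ctrl-Treg (exact permutation p = 0.1). The level and the direction of this ratio thus depended on the lengths used. Which length is right for Krt10 was not tested, and if its reads were counted in fractions the turned forms would not hold. In log2 units the groups were -0.17 ± 0.02 and -0.27 ± 0.02 (SD, n = 3 each) with Krt10 alone at the GENCODE length, and -0.03 ± 0.09 and 0.67 ± 0.05 as deposited.

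**Figure D4:**
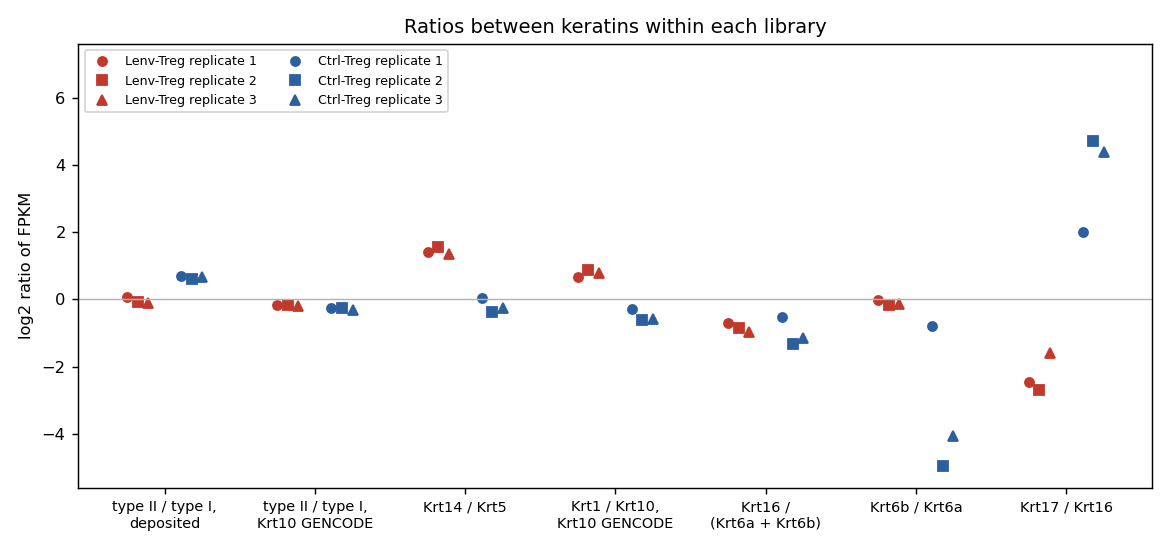
Log2 ratios of FPKM between keratins within each library, Lenv-Treg in red and Ctrl-Treg in blue with marker shapes for replicates; 0 means equal levels per length. The groups lie apart for Krt14 over Krt5, Krt1 over Krt10, Krt6b over Krt6a and Krt17 over Krt16 and overlap for Krt16 over Krt6a and Krt6b. The gap in the type II to type I ratio turns direction and becomes smaller when Krt10 is taken at its GENCODE length.

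Promoters were at hand in RefSeq (GRCm38.p6) for 5 of the 10 members: Krt2, Krt5, Krt10, Krt14 and Krt77. The 250 bases before the start were searched on both strands for AP-1 (TGANTCA), STAT (TTCNNNGAA), the antioxidant response element (TGACNNNGC), C/EBP (TTGCNNAA), the TATA box (TATAAA) and SP1 (GGGCGG). No motif overlapped another. The promoters of Krt10 and Krt77, which were lower, and of Krt14, which rose, are shown with matches in capitals.
Krt10 (chr11:99389365-99389614, minus strand): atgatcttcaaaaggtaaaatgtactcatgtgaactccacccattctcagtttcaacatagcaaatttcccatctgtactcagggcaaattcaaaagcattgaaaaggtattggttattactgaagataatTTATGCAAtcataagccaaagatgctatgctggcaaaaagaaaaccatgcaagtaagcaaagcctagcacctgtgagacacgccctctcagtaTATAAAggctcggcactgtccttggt
Krt77 (chr15:101869706-101869955, minus strand): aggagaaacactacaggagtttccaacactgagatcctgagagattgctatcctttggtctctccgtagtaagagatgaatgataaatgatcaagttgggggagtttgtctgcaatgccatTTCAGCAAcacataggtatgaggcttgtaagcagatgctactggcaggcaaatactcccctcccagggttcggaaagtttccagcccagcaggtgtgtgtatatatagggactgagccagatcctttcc
Krt14 (chr11:100206031-100206280, minus strand): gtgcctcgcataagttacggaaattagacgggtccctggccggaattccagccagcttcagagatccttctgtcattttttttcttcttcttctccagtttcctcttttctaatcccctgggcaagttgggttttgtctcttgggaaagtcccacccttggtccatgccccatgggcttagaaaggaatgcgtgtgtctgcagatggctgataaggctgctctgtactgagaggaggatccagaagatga
Krt10 and Krt77 each held a C/EBP match on the strand opposite to the gene (bases -119 to -112 and -129 to -122 from the start), as did 9.57% of the 32817 promoters searched on either strand. Krt10 also held a TATA box at -26 to -21, found in 12.4% of promoters. Among the rest, Krt2, Krt5 and Krt14 held none of the 6 motifs. AP-1 letters, present in 6.75% of promoters, STAT letters (7.01%), antioxidant response element letters (10.2%) and SP1 letters (32.7%) were in none of the 5. A match is a description of letters and not a binding site.

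The other keratins of the table served as the frame for these values. Of 44 other keratin genes 30 were tested. Of these, 28 were called lower, against 30.8% of all tested genes, while Krt78 and Krt80 did not pass (limma adjusted p = 0.329 and 0.484). Of the 28, 16 were below 0.5 FPKM in every Lenv-Treg library and passed the filter through Ctrl-Treg alone, so that they had to differ, and 12 reached 0.5 FPKM in at least 1 Lenv-Treg library. All 7 tested keratins of the inner root sheath, the layer that moulds the growing hair, were called lower, 2 of them having passed through Ctrl-Treg alone, among them Krt71 (1.94 ± 2.65 FPKM in Lenv-Treg and 830.5 ± 323 FPKM in Ctrl-Treg). All 14 tested keratins of the hair cortex and cuticle were called lower, but 12 of these passed through Ctrl-Treg alone. Krt35, 1 of the remaining pair, was at 0.231 ± 0.3 FPKM in Lenv-Treg and 137 ± 55.8 FPKM in Ctrl-Treg, and Krt31, Krt33a and Krt40 were listed at 0 in all Lenv-Treg libraries. Of 9 tested keratins of other epithelia 7 were called lower, 2 of them through Ctrl-Treg alone, and the other two are Krt78 and Krt80. Krt15, a keratin of basal cells and of the follicle bulge, had 30.8, 15.7 and 19.2 FPKM in Lenv-Treg, against 249, 299.7 and 324 FPKM in Ctrl-Treg, a fall beside the rise of the basal pair (difference -3.72, SE 0.23, limma adjusted p = 6.73e-05). Krt75, a keratin of the companion layer of the follicle, fell by 3.57, while Krt6a, which that layer also makes, rose.

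**Figure D5:**
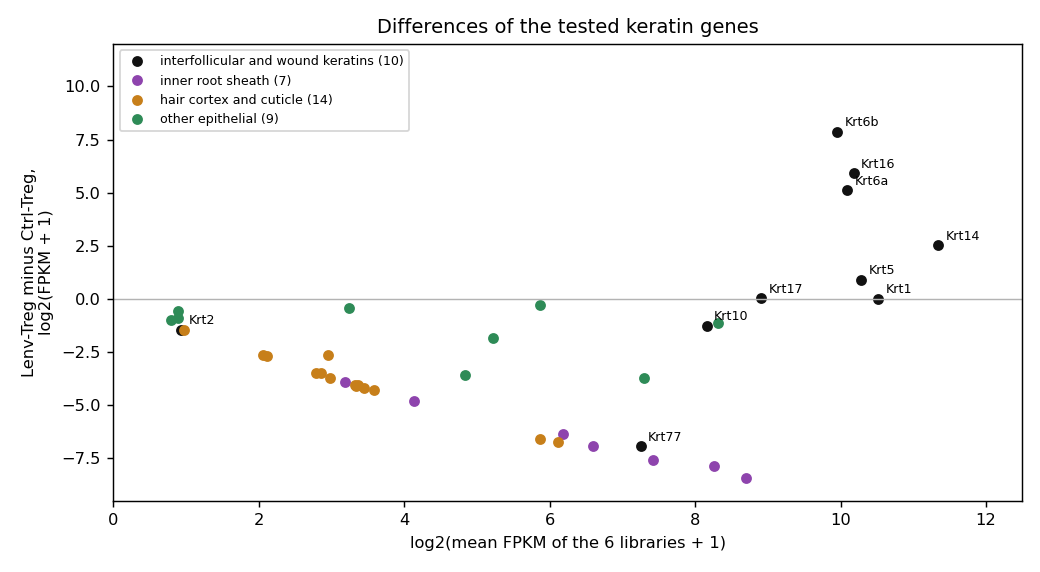
Difference of every tested keratin gene (log2(FPKM + 1), positive where Lenv-Treg was higher) against the log2 of its mean FPKM over the 6 libraries plus 1, coloured by group of keratins with the number tested in brackets. Of all keratins, those above 2.5 are Krt14, Krt6a, Krt16 and Krt6b, and Krt77 lies among the keratins of the inner root sheath and hair.

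Genes that work with keratin filaments were counted beside them. From here on, counts of genes called stand beside 11.0% called higher and 30.8% called lower among all tested genes. Desmosomes and hemidesmosomes anchor the filaments at the cell border, and of 18 such genes 10 rose and 3 fell (median 0.54, 7 and 4 after rescaling to TPM). Dsg1b, a desmosomal cadherin, rose 3.7-fold to 91.6 ± 5.09 FPKM in Lenv-Treg, against 24.8 ± 1.92 FPKM in Ctrl-Treg. Pkp1, a plaque protein, rose by 0.87 and Perp by 0.77, and Dsg2, a cadherin of simple and follicular epithelium, fell by 1.40. Of 15 tested genes that bundle filaments or form the cornified envelope, 4 rose and 5 fell (median -0.15), 2 of the 5 having passed through Ctrl-Treg alone. The 33.3% that fell was near the share of all tested genes. Lor, the major envelope protein loricrin, had 139 ± 89.1 FPKM in Lenv-Treg and 524 ± 99.5 FPKM in Ctrl-Treg (difference -2.07, limma adjusted p = 0.00545), and Flg2, a filaggrin relative, fell by 3.54. Padi3, an enzyme that citrullinates filament-binding proteins, fell by 4.43. Asprv1, a protease that processes filaggrin, was at 563 ± 279 FPKM in Lenv-Treg and 887 ± 222 FPKM in Ctrl-Treg (adjusted p = 0.137, and 0.0231 without Lenv-Treg replicate 1).

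Among 34 transcription regulators of keratinocytes 12 rose and 6 fell (median 0.06). After rescaling to TPM 8 rose and 14 fell, so the balance depended on the scaling. Grhl3, a driver of terminal differentiation and wound repair, rose 3.5-fold (43.2 ± 3.41 FPKM in Lenv-Treg and 12.3 ± 0.806 FPKM in Ctrl-Treg). Junb, an AP-1 subunit, rose by 1.25, and Vdr, the vitamin D receptor, fell by 2.26. Fos, another AP-1 subunit, rose by 1.23 (limma adjusted p = 0.019). It missed the threshold when Lenv-Treg replicate 1 (0.0585) or 3 (0.0662), or Ctrl-Treg replicate 2 (0.0504) or 3 (0.0511), was left out. Of 21 ligands and receptors that act on keratinocytes 11 rose and 1 fell (median 0.61). The EGF receptor ligands Hbegf (8.07-fold) and Areg (7.76-fold) and the cytokine Il36a (4.5-fold) rose, and Tnfrsf1a rose by 0.45, a call lost after rescaling to TPM (adjusted p = 0.192). Of 16 cell cycle genes 13 fell (median -0.66) and the others did not pass. After median-ratio scaling 10 fell (median -0.43), and after rescaling to TPM 15 fell (median -0.95). Mki67 had 8.65 ± 1.19 FPKM in Lenv-Treg and 21.2 ± 1.71 FPKM in Ctrl-Treg, Top2a fell by 1.02 and Pcna by 0.58, while Ccnb1 did not pass (-0.28, adjusted p = 0.0953, and 0.0261 without Ctrl-Treg replicate 1).

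Markers of other cells moved in the same libraries. Of 16 hair follicle markers, among them Krt71, Krt25, Krt35 and Krt75 from above, 15 were called lower, 3 of them through Ctrl-Treg alone, with a summed level of 73.1 to 103 FPKM in Lenv-Treg, against 1306 to 2648 FPKM in Ctrl-Treg, and none was at 0 in a whole group. Lhx2 (difference -3.28) and Lgr5 (-1.78), markers of follicle stem cells, fell. Of 9 tested neutrophil markers 8 were called higher, 2 of them having passed the filter through Lenv-Treg alone, and their sum was 38086 to 53783 FPKM in Lenv-Treg, against 55.2 to 195 FPKM in Ctrl-Treg. S100a8 and S100a9, which keratinocytes also make, gave most of that sum (21891 ± 3885 and 24392 ± 4081 FPKM in Lenv-Treg, against 46.9 ± 32.9 and 56.3 ± 37.9 FPKM in Ctrl-Treg). Retnlg (difference 6.43) and Ly6g (2.27), which are more specific to neutrophils, rose too. Of 5 tested leukocyte markers 2 rose and 1 fell (3 and 0 after median-ratio scaling), with sums of 266 to 322 FPKM in Lenv-Treg and 205 to 308 FPKM in Ctrl-Treg. All 5 melanocyte markers were called lower, 1 of them having passed through Ctrl-Treg alone, with sums of 7.84 to 10.9 FPKM in Lenv-Treg and 112 to 180.5 FPKM in Ctrl-Treg.

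Of all tested genes 11.0% were called higher and 30.8% lower, and the following counts stand beside those shares. Of 6 fibroblast markers 3 fell, with a list median of -0.41 (sums of 2376 to 3406 FPKM in Lenv-Treg and 4395 to 5581 FPKM in Ctrl-Treg). Sebaceous markers fell for 3 of 7 (483 to 718 FPKM in Lenv-Treg and 1072 to 1233 FPKM in Ctrl-Treg), with a list median of -0.05. Scd1 fell by 1.71, and Mgst1 did not pass (-0.04, adjusted p = 0.84). Adipocyte markers fell for 4 of 6 (270.3 to 342 FPKM in Lenv-Treg and 511 to 705 FPKM in Ctrl-Treg). Of 6 muscle markers 0 passed in limma, 0 at an unadjusted p under 0.05 and 0 with voom on recovered reads, while 2 fell after rescaling to TPM (2498 to 3394 FPKM in Lenv-Treg and 2631 to 8754 FPKM in Ctrl-Treg). Endothelial markers rose for 2 of 5 (89 to 117 FPKM in Lenv-Treg and 48.8 to 82.9 FPKM in Ctrl-Treg), calls that were lost after rescaling to TPM (Emcn adjusted p = 0.171, Tie1 adjusted p = 0.212). After median-ratio scaling 3 of the 5 rose. The part of these cells in the keratin differences was not tested.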

How the data were processed

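RNA-seq of lesional skin was measured in 6 libraries, 3 per group, grouped by the treatment label. The authors deposited FPKM, in a table with 35434 symbols. Per the submitters' processing notes, reads were placed on GRCm39; aligner, counter, annotation and filters: not given in the sources used here. This table gives no coordinates, and the reference used for lengths and sequences was GRCm38, so chromosomes and positions are those of that build. FPKM values were whole multiples of a step per gene. With depth fixed from 177 genes whose step matched their GENCODE M21 exon length, among 7576 low genes with such a length, all 13945 tested genes gave whole reads in all 6 libraries within 0.005 reads. Intervals on reads cover counting error only.

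Genes with FPKM of at least 0.5 in at least 3 libraries were tested with limma 3.58.1 (R 4.3.3, linear fit and moderated variance following mean level) on log2(FPKM + 1), two-sided, without covariates, with Benjamini-Hochberg adjustment over all tested genes and a threshold of 0.05. The script was tested on simulated data. Single values per library were compared by exact permutation. Members and gene lists were chosen with earlier results of these data known. Named are all members and, per list, the 2 genes with the highest mean and the 2 others with the smallest p, some of which are left out for space. Trp63, Col17a1, Dsp, Itgb4, Gm5414, Krt31, Krt33a, Krt40, Krt78 and Krt80 fall outside that rule and were chosen after their values were seen. The table's name Lor was used for loricrin, and Krt74 was not analysed here. Alternatives covered scaling, pseudocount, filter, variance trend, replicate block, voom on recovered reads, the threshold and leaving out each library. Dividing Krt10, or Krt10 and Krt1, by GENCODE lengths was added after the data were seen. The labels give no batch.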

Additional observations from a re-analysis of the deposited data

How the results depend on the processing

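Of the 10 members, 9 kept their direction or non-call under all alternatives that could test them, and Krt2 could not be tested where every library needs FPKM of at least 1. Krt10 lost its call after median-ratio scaling (-1.02, adjusted p = 0.0893), with no filter (-1.25, adjusted p = 0.108), at a threshold of 0.01 (-1.25, adjusted p = 0.0419) and without 1 of 4 libraries, with differences from -1.73 to -0.99 over the 6 libraries left out; the cause was not tested. The count of genes called higher, 1532, was 947 after rescaling to TPM, 2548 after median-ratio scaling and 925 at a threshold of 0.01, and 1152 to 1447 with a library left out. The count called lower, 4289, was 7970, 2275 and 2246 under the same changes, 2304 after quantile normalization, and 2780 to 3900 with a library left out. A library left out also means fewer samples. The type II to type I ratio, -0.70 in log2 units as deposited, was 0.10 with Krt10 at its GENCODE length and 0.35 with Krt10 and Krt1 at theirs. These reversals hold only if the recovered reads and the GENCODE lengths are right, which was not tested. Replicate numbers share no stated animal, and same-numbered deviations correlated at 0.196, -0.0109 and 0.328. With the replicate block, 1637 genes were higher and 4270 lower, and all 8 called members passed, Krt10 at adjusted p = 0.011. Of 66 other named genes, 10 lost a call under some alternative and 10 gained one; none reversed. A count of 0 limits Krt2 in Lenv-Treg, and groups of 3 limit every permutation test to p = 0.1.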

Other observations

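The genes whose log2(FPKM + 1) followed a member most closely over the 6 libraries are given as a description, since with 6 points in 2 groups and shared depth any gene that differs between groups correlates highly. Krt6a was closest to Slpi (Pearson r = 0.9998), a protease inhibitor of epithelia and neutrophils, then to the stefin Stfa2 (0.9997) and the cornified envelope gene Sprr2i (0.9995). Slpi had 147 FPKM in Lenv-Treg and 2.71 FPKM in Ctrl-Treg. Krt14 was closest to the kallikrein Klk13 (0.9995), with 88.6 FPKM in Lenv-Treg and 9.16 FPKM in Ctrl-Treg, followed by the scavenger receptor Msr1 (0.9992) and Klk12 (0.9990). Krt5 was closest to Atp2c2 (0.9983), Tbc1d2 (0.9974) and Serpinb3b (0.9971). Krt6b was closest to Tlr1 (0.9994), with Krt16 and Tifa next (0.9964 each), and Krt16 to Ttc39b (0.9987), Cd300a (0.9983) and Tlr13 (0.9983).

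The members that were not higher in Lenv-Treg followed other genes. Krt1, high in Lenv-Treg replicate 1, was closest to Chit1 (0.9974), which encodes chitotriosidase and averaged 27.1 FPKM in Lenv-Treg and 26.1 FPKM in Ctrl-Treg. Krt17 was closest to Nme6 (0.9887), Ikbkb (0.9798) and Ccdc107 (0.9796). Krt10 was closest to Aadacl4fm4 (0.9950), Otop3 (0.9944) and Slc46a2 (0.9901). Krt77 was closest to Phf19 (0.9998), and after it to Col11a1 (0.9994) and Acan (0.9991), a collagen and a proteoglycan best known from cartilage. Krt2 was closest to Trpm1 (1.0000), a melanocyte ion channel at 0.0552 FPKM in Lenv-Treg and 2.72 FPKM in Ctrl-Treg.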
